A study of Mus musculus with 4 samples.

Results

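Cortical interneuron subtypes are told apart by the neuropeptides, calcium-binding proteins and secreted or enzymatic proteins that they make, and 10 genes of this kind were examined here in *Hmx3*-lineage cells with and without a *Dnmt1* deletion. The genes were *Sst*, *Npy*, *Vip*, *Cck* and *Tac1* for neuropeptides, *Calb1*, *Calb2* and *Pvalb* for calcium-binding proteins, *Reln* for the secreted protein reelin and *Nos1* for neuronal nitric oxide synthase. They were chosen by name, with earlier results of these data known, and all 10 were found among the 55480 counted genes that matched the annotation. In the mouse, these markers label partly overlapping groups of inhibitory neurons that arise in the ganglionic eminences and in the preoptic area (POA) and migrate to the cortex. *Sst* and *Pvalb* label the main classes from the medial ganglionic eminence, *Vip* labels cells of the caudal ganglionic eminence, and POA-derived interneurons include cells with *Npy* or *Reln*. The peptides are cut from larger precursors, stored in dense-core vesicles and read by G protein-coupled receptors on other cells, whereas the calcium-binding proteins buffer calcium within the cell. *Pvalb* is known as a late marker that appears mainly after birth.

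RNA sequencing covered 4 libraries of tdTomato-positive cells sorted by FACS at E16, counted from E1 on the day of insemination, 2 of them wild-type (WT) for *Dnmt1* and 2 with its deletion (knockout, KO). Both genotypes carried *Hmx3-Cre* and the tdTomato reporter, and the KO embryos also carried the *Dnmt1 loxP2* allele, in which Cre removes floxed exons in *Hmx3*-expressing cells and their progeny, so that cells outside this lineage kept *Dnmt1*. The tissue is the basal telencephalon in the sample labels and the POA in the study's methods. Cells were pooled from 12 WT and 6 KO embryos, and the libraries are named biological replicates in the labels and technical duplicates of pools in the methods, so that errors and p-values describe the spread between libraries, which may be technical. Libraries held between 8075102 and 9995968 counts, at which 3 counts correspond to 0.294 to 0.372 CPM (reads of a gene scaled to a common, normalised library size). The share of mitochondrial rRNA was 8.66% for WT 1 and 1.51% to 2.32% for the other libraries. The targeted gene *Dnmt1* gave 3103 and 4557 counts in the WT libraries, against 2383 and 2552 in the KO libraries (log2 fold change -0.56 ± 0.14 SE, edgeR adjusted p = 0.0511). The gene total holds all exons, deleted or not.

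The labelled cell type was checked against its defining genes. Of 22 genes of the GABAergic and interneuron lineage, all 22 passed the expression filter, and their summed level was 2556 to 3012 CPM in WT and 2350 to 2428 CPM in KO. The most abundant of them, *Dlx1*, a homeobox gene of subpallial neurons, averaged 670 ± 46.9 CPM for WT, against 580 ± 33.2 CPM for KO (SD, n = 2 each). *Hmx3*, whose promoter drives the Cre, averaged 84.3 ± 8.11 CPM for WT, against 82.8 ± 15.5 CPM for KO (SD, n = 2 each), and the most abundant POA identity gene was *Hmx2*. Among the preoptic genes, *Dbx1* had between 0 and 5 counts per library. RNA of other neurons was present as well, since *Neurod2*, a gene of glutamatergic neurons, reached 1061 and 1503 counts in the WT libraries.

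To show where the members lie and which control elements stand next to their starts, the RefSeq promoter windows on GRCm38.p6 were read for the 8 of 10 members that had one. Each window of 300 bases runs from 250 bases before the start of transcription to 50 after it. The cyclic AMP response element (CRE), which binds CREB proteins, is a classical element of neuropeptide promoters. Its full form TGACGTCA reads the same on both strands and was found in 1.79% of 32851 windows, and its half-site TGACG, searched on both strands and contained in the full form, in 20.8%. The full form was found in the window of *Sst* alone among the members, and the half-site also in those of *Vip*, *Nos1*, *Cck* and *Tac1*. The 30 bases around the match nearest to the start are given below in the direction of the gene, with the match in capitals.
*Sst* (chr16:23890874-23890903, minus strand): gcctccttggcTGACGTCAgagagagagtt
*Vip* (chr10:5639127-5639156, plus strand): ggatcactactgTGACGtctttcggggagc
*Cck* (chr9:121495724-121495753, minus strand): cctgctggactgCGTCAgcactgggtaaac
*Tac1* (chr6:7555006-7555035, plus strand): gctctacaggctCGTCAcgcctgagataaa
*Nos1* (chr5:117866697-117866726, plus strand): aaaccagccatgCGTCAggcttggcttcag
The match began 48 bases before the start in *Sst*, 79 in *Vip*, 47 in *Cck*, 43 in *Tac1* and 130 in *Nos1*. The window of *Nos1* begins at 117866589, well inside the gene, which is annotated from 117781032 to 117958840. Its match and its CpG count thus belong to an internal start, not to the annotated beginning of the gene. *Sst* was the most abundant member per length and *Vip* one of the rarest, as given below. The homeobox core TAATTA, found in 5.29% of windows, was in that of *Tac1*, and the TATA box TATAAA, found in 13.6%, was in that of *Vip*. A match in a window is a description, not a site.

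DNMT1 copies methylation at CpG dinucleotides, and the members' windows differed widely in them. *Reln* had 47 CpG in its window, and 1.44% of all windows had as many or more. The windows of *Npy*, *Tac1*, *Sst*, *Cck*, *Nos1* (at its internal start) and *Vip* held 24, 22, 13, 10, 6 and 4, against a median of 7 over all windows. *Pvalb* had 2 annotated starts with 5 and 25. The 100 bases before the start of *Reln*, *Npy* and *Vip* are printed with CpG in capitals, to show promoters that differ in their number.
*Reln* (chr5:22344706-22344805, minus strand): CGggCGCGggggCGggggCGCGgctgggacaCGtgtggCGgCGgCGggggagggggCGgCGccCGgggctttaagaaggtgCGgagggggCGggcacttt
*Npy* (chr6:49822610-49822709, plus strand): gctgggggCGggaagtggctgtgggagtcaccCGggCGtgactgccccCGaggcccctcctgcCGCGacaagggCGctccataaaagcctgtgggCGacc
*Vip* (chr10:5639118-5639217, plus strand): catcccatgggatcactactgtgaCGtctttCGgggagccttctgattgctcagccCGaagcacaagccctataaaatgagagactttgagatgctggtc
These 100 bases held 15 CpG in *Reln*, 8 in *Npy* and 3 in *Vip*. Methylation itself was not analysed here.

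The markers were ordered by their level per kilobase of annotated exon (CPM per kilobase), the scale on which genes of different length can be set side by side. In WT, *Sst* stood highest with 60.3 ± 15.4 (SD, n = 2), followed by *Npy* with 17.3 ± 2.73, *Calb1* with 13.3 ± 3.39, *Reln* with 12.5 ± 0.978 and *Calb2* with 9.15 ± 1.36. A further step down led to *Cck* with 2.23 ± 1.41 and *Nos1* with 1.70 ± 0.293, then to *Tac1* with 0.490 ± 0.0816. The libraries of *Npy* and *Calb1*, of *Calb1* and *Reln*, and of *Cck* and *Nos1* overlapped, so that the order of these neighbours was not settled in WT. In KO, *Sst* was again highest with 44.6 ± 2.41, and *Npy*, *Reln*, *Calb1* and *Calb2* followed with 12.0 ± 1.495, 9.96 ± 0.310, 8.45 ± 1.51 and 4.95 ± 0.150. *Nos1* and *Cck* overlapped also in KO, with 0.914 ± 0.0494 and 0.822 ± 0.389. The plot of length-scaled levels shows this ladder for both genotypes. Annotated exons of all transcripts were summed for the length, so a gene with long, rarely used exons, such as *Reln* with 23738 bases, can appear lower than it is.

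**Figure D1:**
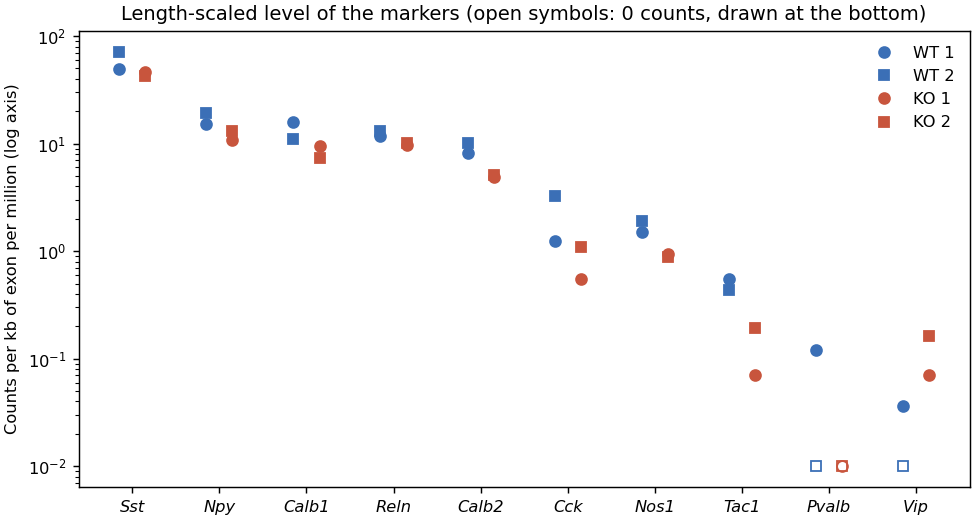
Level of each marker in CPM per kilobase of annotated exon (log axis) in WT (blue) and KO (red), with circles for library 1 and squares for library 2 and open symbols for libraries without a count. *Sst* lies above all other markers in each of the 4 libraries, and *Pvalb* and *Vip* lie at the bottom in WT.

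The comparison of KO with WT asks how the loss of DNMT1 changed the expression of subtype markers in sorted *Hmx3*-lineage cells. Markers of other cells moved with the genotype as well, and the sum of the astrocyte list was 4012 to 4219 CPM in the KO libraries, against 267 to 284 CPM in the WT libraries. Their part in the members' values was not tested. The markers that could be tested had lower values in KO, at 28.0% to 79.9% of their WT level, but none of them passed the test over all genes. Of the 10 members, 8 passed the expression filter, and *Vip* and *Pvalb* did not. By edgeR's quasi-likelihood test at an adjusted p under 0.05, 0 members were higher in KO (7.33% of the 16832 genes tested were) and 0 were lower (0.57% of all genes were, and 7.9% were called in either direction). Over all genes this was 1233 higher and 96 lower, a split that became 1845 and 1011 with length and GC offsets. At an unadjusted p under 0.05, 5 members were lower, namely *Nos1*, *Calb2*, *Calb1*, *Tac1* and *Reln* (8.01% of all genes were). With DESeq2, 0 members passed (1.47% of all genes were lower). In edgeR, 4 members were lower with length and GC offsets (*Sst*, *Reln*, *Calb2* and *Nos1*, with 6.01% of all genes) and 3 without an expression filter (*Calb1*, *Calb2* and *Nos1*, with 1.91% of all genes). For all 8, the highest KO library was below the lowest WT library (25.2% of the genes tested showed this, and 28.3% the opposite), but *Cck* and *Tac1* passed the filter only through their WT counts. Of the 6 members with at least 10 counts in every library, all 6 had KO below WT (27.9% of such genes did), and their median log2 fold change was -0.59, against -0.03 over all genes tested and -0.56 over 12 genes of neurons in general. With libraries scaled to these neuron genes, an alternative chosen after the values were seen, the median of the 6 was -0.05. That scaling raises all genes by about the same amount, and the median of all genes tested became 0.51. In these bulk libraries, fewer cells that express a gene and less of its RNA per cell cannot be told apart.

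**Figure D2:**
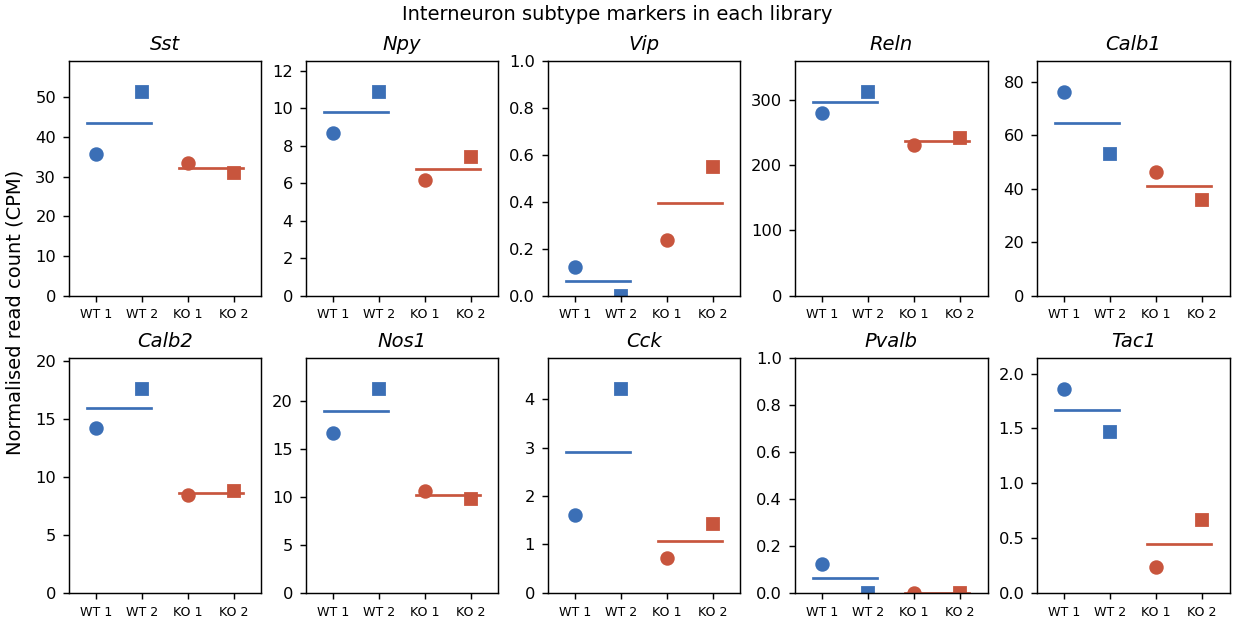
Normalised read count (CPM, linear axis from 0, scaled separately for each gene) of the 10 markers in the 2 WT and 2 KO libraries, with a line at the mean of each genotype. Both KO points lie below both WT points in every panel but those of *Vip*, where they lie above, and *Pvalb*, where 1 count was found in all.

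Among the neuropeptides, *Sst* encodes somatostatin, which inhibits neighbouring cells and labels the largest peptide-bearing class of cortical interneurons. It lies on chromosome 16 of GRCm38 from 23889573 to 23890958 and had 287 and 524 counts in WT and 281 in each KO library. This gave 35.6 and 51.3 CPM in WT and 33.4 and 30.9 CPM in KO. WT 2 stood well above the other 3 libraries, and WT 1 was only slightly above KO 1. The log2 fold change of *Sst* was -0.44 (standard error 0.21, 95% interval -0.91 to 0.04, edgeR adjusted p = 0.252). Without WT 2 it was -0.16 (edgeR adjusted p = 0.635) and without WT 1 it was -0.68 (0.000984), so that the size of the difference rested on which WT library was kept.

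*Npy*, on chromosome 6 from 49822710 to 49829507, encodes neuropeptide Y, an inhibitory peptide of several interneuron classes, among them neurogliaform and long-range projecting cells. It gave 70 and 111 counts in the WT libraries, against 52 and 67 in the KO libraries, or 8.69 and 10.9 CPM against 6.18 and 7.38 CPM. The genotypes did not overlap, with a gap between WT 1 and KO 2 that was smaller than the distance between the WT libraries. The log2 fold change was -0.53 (standard error 0.29, 95% interval -1.21 to 0.15, edgeR adjusted p = 0.329). *Npy* was not called in any of the 15 alternative fits.

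*Cck*, on chromosome 9 from 121489824 to 121495694, encodes cholecystokinin, which labels basket cells of the caudal ganglionic eminence and is also made by excitatory neurons. Its 13 and 43 counts in the WT libraries and 6 and 13 in the KO libraries gave 1.61 and 4.21 CPM against 0.713 and 1.43 CPM, with WT 2 far above the other libraries. The log2 fold change was -1.44 (standard error 0.67, 95% interval -2.98 to 0.10, edgeR adjusted p = 0.245). It was -0.59 without WT 2 (edgeR adjusted p = 0.743) and -1.96 without WT 1 (0.0145).

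*Tac1*, on chromosome 6 from 7554879 to 7565834, encodes the precursor of substance P and neurokinin A, and is found in a subset of interneurons and in projection neurons of the striatum. It had 15 counts in each WT library and 2 and 6 in KO, which is 1.86 and 1.47 CPM against 0.238 and 0.661 CPM. Both KO libraries were low, and KO 1 was under the level of 3 counts. The fitted log2 fold change was -1.84 (standard error 0.71, 95% interval -3.48 to -0.20, edgeR adjusted p = 0.175). It was -1.67 without WT 1, -2.01 without WT 2, -1.30 without KO 1 and -2.73 without KO 2, with edgeR adjusted p from 0.203 to 0.803. From the summed counts of 30 in WT and 8 in KO, the ratio of KO to WT was 0.278 (95% exact interval 0.1103 to 0.622, counting error only).

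*Vip*, on chromosome 10 from 5639218 to 5647617, for vasoactive intestinal peptide, which labels interneurons that inhibit other interneurons, gave 1 and 0 counts in the WT libraries, against 2 and 5 in the KO libraries. It was not tested, and the count ratio of KO to WT, 7.31, had an exact 95% interval from 0.939 to 329, which includes equal levels. Its level was thus close to the limit of detection in all 4 libraries.

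Among the calcium-binding proteins, *Calb1* encodes calbindin, which is typical of migrating and *Sst*-class interneurons. It lies on chromosome 4 from 15881264 to 15908064 and gave 614 and 541 counts in the WT libraries, against 388 and 325 in the KO libraries. The levels were 76.2 and 53.0 CPM in WT and 46.1 and 35.8 CPM in KO. The order of the WT libraries was opposite to that of *Sst*, with WT 1 as the highest library. The log2 fold change was -0.66 (standard error 0.22, 95% interval -1.15 to -0.16, edgeR adjusted p = 0.119). It was -0.91 without WT 2 (edgeR adjusted p = 2.82e-07) and -0.38 without WT 1 (0.0854), and it shrank to -0.37 with length and GC offsets (0.111) and to -0.11 when libraries were scaled to general neuron genes (0.705).

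*Calb2*, on chromosome 8 from 110137502 to 110168210, encodes calretinin, a marker of interneurons that often share *Vip* or *Sst* and also of Cajal-Retzius cells. It gave 115 and 180 counts in the WT libraries, against 71 and 80 in the KO libraries. The 2 KO libraries lay close together at 8.44 and 8.81 CPM, well below the WT libraries at 14.3 and 17.6 CPM. The log2 fold change of -0.89 (standard error 0.25, 95% interval -1.48 to -0.30) was not past the threshold, with an edgeR adjusted p of 0.0803. Over 15 alternative fits the log2 fold change ranged from -1.04 to -0.36, and *Calb2* passed in 5 of them, the fit without WT 1 included (-1.04, edgeR adjusted p = 0.00154).

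*Pvalb*, on chromosome 15 from 78191114 to 78206400, encodes parvalbumin, the marker of fast-spiking basket and chandelier cells. There was 1 count in WT 1 and 0 in the other libraries, so that both genotypes were at or under the limit of 3 counts and no fold change is given. At this depth, *Pvalb* RNA was not detectable above 0.294 to 0.372 CPM.

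*Nos1*, on chromosome 5 from 117781032 to 117958840, encodes neuronal nitric oxide synthase, which labels neurogliaform cells and the long-range *Sst*/*Npy* cells. It had 134 and 217 counts in WT and 89 in each KO library, or 16.6 and 21.3 CPM against 10.6 and 9.80 CPM. The KO libraries were near each other and both WT libraries were higher. At -0.90 on the log2 scale (standard error 0.24, 95% interval -1.46 to -0.34), *Nos1* came closest to the threshold among the members (edgeR adjusted p = 0.067). It passed in 6 of the 15 alternative fits, and its log2 fold change lay between -1.07 and -0.37 in them. Without WT 1 its edgeR adjusted p was 0.000281, and without WT 2 it was 0.0432. The antisense gene *Gm26995* overlaps 2.40% of the exonic bases of *Nos1*, and the strand setting of the counting is not given in the sources used here.

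*Reln*, on chromosome 5 from 21884454 to 22344702, encodes the extracellular matrix protein reelin, which Cajal-Retzius cells and a class of superficial interneurons release. It was by far the most counted member, with 2251 and 3187 counts in the WT libraries, against 1945 and 2194 in the KO libraries. Its levels of 279 and 312 CPM in WT and 231 and 242 CPM in KO did not overlap, and the KO libraries differed by less than the WT libraries. The log2 fold change of *Reln* was -0.32 (standard error 0.14, 95% interval -0.64 to -0.01, edgeR adjusted p = 0.213), which is 79.9% of the WT level. It was -0.41 without WT 1 (edgeR adjusted p = 0.00715) and -0.25 without WT 2 (0.186). It made up 65.3% of the members' summed CPM in WT and 70.1% in KO. The antisense gene *Gm10475* overlaps 1.04% of its exonic bases.

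**Figure D3:**
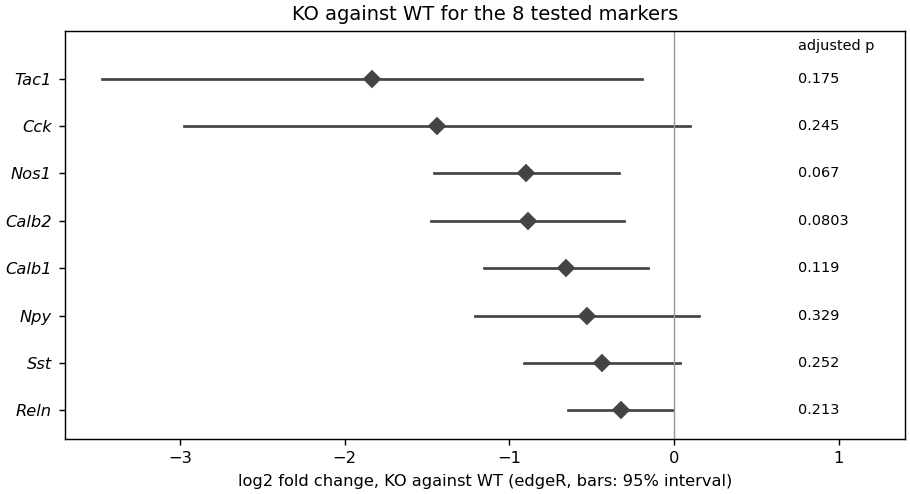
log2 fold change of KO against WT for the 8 tested markers (diamonds) with 95% intervals from edgeR's quasi-likelihood fit, and the edgeR adjusted p over all genes at the right. All diamonds lie left of 0, and 5 of the 8 intervals do not reach it (*Tac1*, *Nos1*, *Calb2*, *Calb1* and *Reln*). *Cck* and *Tac1* passed the expression filter only through their WT counts, which favours values left of 0 for them.

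The WT libraries differed more from each other than the KO libraries did, with a biological coefficient of variation over all genes of 0.234 in WT and 0.103 in KO. WT 1 was below WT 2 in 6 of the 8 tested members and above it in *Calb1* and *Tac1*. WT 1 is also the library with the higher share of mitochondrial rRNA, and the part of this in the members' values was not tested. Leaving out either WT library brought members past the threshold, 5 without WT 1 (*Sst*, *Reln*, *Calb2*, *Nos1* and *Cck*) and 2 without WT 2 (*Calb1* and *Nos1*). The share of all genes called lower rose as well, to 7.15% without WT 1 and 12% without WT 2. Leaving out KO 1 or KO 2 brought 0 members, with 0.656% and 0.288% of all genes called lower. In these fits the lone library of a genotype is assumed to vary like the other genotype. *Cck* passed the main filter only through its WT counts, and without WT 1 its WT level rests on the 43 counts of WT 2.

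Genes of the pathways that serve the members were compared in the same fit. None of the 17 receptors for the 5 peptides passed the test, and 6 of them were expressed enough to be tested, with a median log2 fold change of -0.34. The most abundant receptor, *Npy2r*, an NPY receptor, averaged 49.8 ± 9.77 CPM for WT, against 40.0 ± 3.46 CPM for KO (SD, n = 2 each; log2 fold change -0.31, edgeR adjusted p = 0.357). *Sstr2*, a somatostatin receptor, had a log2 difference of -0.56 (edgeR adjusted p = 0.222), and *Npy1r* had 1.34 (edgeR adjusted p = 0.21) with 1.74 ± 1.22 CPM for WT, against 4.33 ± 0.575 CPM for KO (SD, n = 2 each). The receptors of VIP, cholecystokinin and tachykinins had at most 26 counts in any library.

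Of 13 genes for peptide processing and dense-core vesicles, all were tested, none passed and 11 had lower values in KO (median log2 fold change -0.35, smallest edgeR adjusted p = 0.0983). *Cpe*, which trims peptide precursors and had the highest mean over the 4 libraries, averaged 422 ± 15.4 CPM for WT, against 459 ± 30.6 CPM for KO (SD, n = 2 each). The convertase gene *Pcsk2* had a log2 difference of -0.46 (edgeR adjusted p = 0.131) and *Scg2*, for the vesicle protein secretogranin II, -0.50 (edgeR adjusted p = 0.0983). Of 11 other EF-hand calcium-binding proteins, 10 were tested and none passed, with a median of -0.42. *Calm3*, a calmodulin gene and the most abundant, had a log2 difference of -0.29 (edgeR adjusted p = 0.372).

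Reelin acts through the receptors VLDLR and LRP8 and the adaptor DAB1. None of the 6 genes of this pathway passed (median log2 fold change -0.16, smallest edgeR adjusted p = 0.278). *Lrp8*, the most abundant, averaged 351 ± 47.9 CPM for WT, against 327 ± 16.9 CPM for KO (SD, n = 2 each), and *Dab1* had a log2 difference of 0.26 (edgeR adjusted p = 0.355). Nitric oxide activates soluble guanylate cyclase, which makes cyclic GMP. Of the 8 genes of this pathway, 7 were tested, none passed, and all 7 had higher values in KO (median log2 fold change 0.14). The cyclase subunit gene *Gucy1a1*, the most abundant, had a log2 difference of 0.14 (edgeR adjusted p = 0.63) and the kinase gene *Prkg1* 0.80 (edgeR adjusted p = 0.15).

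Among 20 further markers of interneuron subtypes, 14 were tested, 1 was higher in KO and 0 were lower, with a median log2 fold change of 0.07. The gene that rose was *Cxcl14*, a chemokine gene of superficial interneurons that astrocytes can also express, with 18 and 17 counts in the WT libraries, against 427 and 392 in the KO libraries (log2 fold change 4.60 ± 0.26 SE, edgeR adjusted p = 2.04e-05). The most abundant of these markers, *Cnr1*, the cannabinoid receptor of *Cck* cells, averaged 245 ± 68.2 CPM for WT, against 162 ± 10.6 CPM for KO (SD, n = 2 each; log2 fold change -0.60, edgeR adjusted p = 0.119). *Chodl*, which labels long-range *Sst*/*Nos1* cells, had a log2 difference of -0.62 (edgeR adjusted p = 0.347), and *Npas1*, *Nxph1* and *Grin3a* had values between 0.01 and 0.21. Of the 14 tested, 8 had positive and 6 negative values. *Penk* had 1.25 (edgeR adjusted p = 0.244) and *Sncg* had 3.64 (edgeR adjusted p = 0.0762). *Sncg* gave 2 and 0 counts in the WT libraries, against 16 and 11 in the KO libraries, so its value has no fixed size.

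Of the 22 lineage genes, 1 was lower in KO and 0 were higher (median log2 fold change -0.21). The gene that fell was *Mef2c*, a transcription factor of maturing interneurons and of cortical excitatory neurons, at -0.84 ± 0.17 SE on the log2 scale (edgeR adjusted p = 0.0216). *Lhx6*, which specifies *Sst* and *Pvalb* cells, had a log2 difference of 0.08 (edgeR adjusted p = 0.825), and *Gad1* and *Gad2*, for the enzymes that make GABA, had -0.29 and -0.32 (edgeR adjusted p = 0.245 and 0.322). Among 7 preoptic identity genes, 6 were tested, *Nkx6-2* was higher and *Isl1* lower in KO, and the median was -0.19. *Hmx3* itself had a log2 difference of -0.03 (edgeR adjusted p = 0.949).

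Markers of other cells moved together with the genotype. All 12 astrocyte markers were higher in KO by the test, with a median log2 fold change of 4.29, and their summed level was 267 to 284 CPM in WT and 4012 to 4219 CPM in KO. The defining marker *Gfap* was without a count in WT (0 in each library) and gave 149 and 198 in the KO libraries. Of 8 oligodendrocyte markers 7 were higher, with sums of 130 to 154 CPM in WT and 597 to 625 CPM in KO, and of 6 mural cell markers 5 were higher, with sums of 41.7 to 44.1 CPM and 340 to 345 CPM. The smooth muscle gene *Acta2* had 0 counts in both WT libraries. Of 12 genes of neurons in general, 3 were lower (*Syt1*, *Elavl4* and *Stmn2*) and 0 higher, with a median log2 fold change of -0.56 and summed levels of 6093 to 6660 CPM in WT and 4443 to 4499 CPM in KO. *Map2*, the most abundant of them, had a log2 difference of -0.44. The 8 markers of glutamatergic neurons had a median of -0.72 and sums of 496 to 516 CPM in WT and 253 to 284 CPM in KO. *Neurod6* and *Neurod2*, transcription factors of these neurons, were lower at -1.38 and -0.76 on the log2 scale (edgeR adjusted p = 0.000882 and 0.0229). The part of these cell types in the members' lower values was not tested.

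When libraries were scaled to the 12 general neuron genes in place of all genes, an alternative chosen after the values were seen, the median log2 fold change of all genes moved to 0.51 and that of the 6 members with at least 10 counts in every library to -0.05. This scaling raises all genes by about the same amount. *Sst* and *Reln* stood at 0.09 and 0.21 there, above 0 but below the median of all genes, and neither passed the threshold. The other members had negative values, from -0.002 for *Npy* to -1.31 for *Tac1*. With the 22 lineage genes as the scale, all genes had a median of 0.22 and the same 6 members of -0.35. In both, 0 members passed (0.22% and 0.446% of all genes were called lower).

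**Figure D4:**
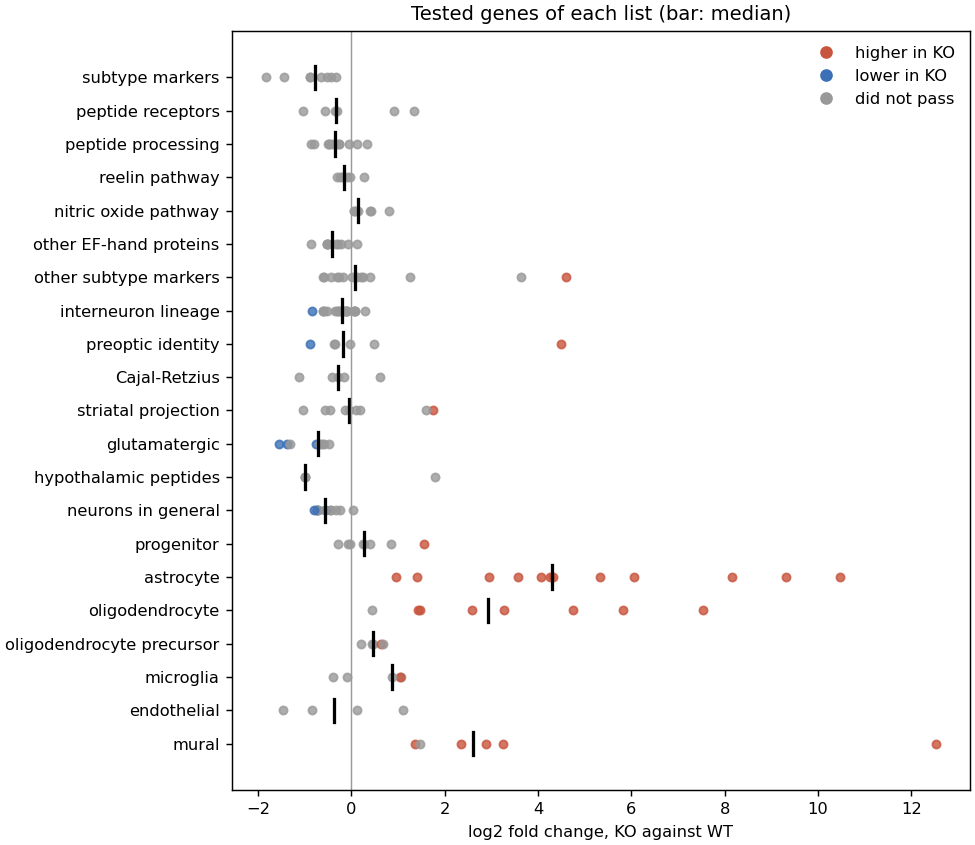
log2 fold change of KO against WT for every tested gene of the member list and of 20 other lists, with the median of each list as a bar and colours for genes past the test. The 8 grey points of the subtype markers lie below 0, but *Cck* and *Tac1* passed the filter only through their WT counts. Most genes of neurons in general also lie below 0, and the astrocyte, oligodendrocyte and mural lists lie above it. Values of genes without counts in WT, such as *Acta2* and *Gfap*, are fitted and have no fixed size.

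Reelin and calretinin are also made by Cajal-Retzius cells, the early neurons of the cortical surface. Of 5 genes listed for these cells none passed, with a median log2 fold change of -0.30 and summed levels of 99.7 to 116 CPM in WT and 86.5 to 89.2 CPM in KO. Most of this sum was *Lhx5*, which the POA expresses as well (log2 fold change -0.30, edgeR adjusted p = 0.315), and the defining marker *Trp73* had 9 to 19 counts per library. The part of these cells in the values of *Reln* and *Calb2* was not tested.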

How the data were processed

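Gene expression was measured by RNA sequencing of FACS-sorted tdTomato-positive cells at E16, in 2 libraries of each genotype. Unnormalised read counts for each Ensembl identifier were deposited by the authors. The submitters' processing notes name CASAVA 1.8.2, STAR 2.5.2a, featureCounts 1.5.0-p1 and GRCm38. The annotation release and the strand setting are not given in the sources used here.

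Of the identifiers, 55480 matched GENCODE M21 (GRCm38), which supplied symbols, positions and exon lengths. Low genes were removed by filterByExpr (16832 genes kept), normalised with TMM factors and tested with edgeR's quasi-likelihood test (edgeR 4.0.16, R 4.3.3), with genotype as the only term and Benjamini-Hochberg adjustment over all tested genes (threshold 0.05). CPM used TMM-scaled library sizes. Counting intervals and floors cover counting error only. Promoter sequences were taken from RefSeq (GRCm38.p6).

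The members and the gene lists were chosen with earlier results of these data known. Named genes are the members, the most abundant gene of each list (by mean CPM over the 4 libraries) and those that passed the test (at most 5 per list), and other list genes were chosen after their values were seen. A result of the glutamatergic list is not reported here. Alternatives were DESeq2 1.42.0, other scalings and filters, a replicate block, length and GC offsets, removal of 391 mitochondrial and rRNA genes, and each library left out. On simulated counts of 16212 genes of which 200 had a log2 change of 2, the main test found 87% of these and 5.9% of its calls were false. That change is larger than the fitted change of any tested member, and the simulation gave both genotypes the same spread. It therefore does not measure how often changes of the members' size would be found.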

Additional observations from a re-analysis of the deposited data

How the results depend on the processing

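Of 118 values for single members under the alternatives, 95 kept their direction and their side of the threshold, 21 passed it in addition, and 2 changed sign, namely *Sst* (0.088) and *Reln* (0.21) when libraries were scaled to general neuron genes, which raised the median of all genes to 0.51. No member was higher in KO by the test in any alternative. The count of members lower in KO, 0 in the report, was 3 without an expression filter and 3 with the replicate block, 4 with length and GC offsets and 4 with the block and offsets together, and ranged from 0 to 5 when 1 library was left out. The replicate block brought *Calb1*, *Calb2* and *Nos1* past the threshold (edgeR adjusted p = 0.012, 0.0401 and 0.0306). Same-numbered libraries had a correlation of deviations of 0.159 across 16832 genes, and with only 2 pairs the numbers were not taken to pair the libraries. Genes lower in KO, 96 in the report, were 247 with DESeq2, 573 without a filter, 52 with at least 10 counts in every library, 619 with the block, 1011 with offsets, 1425 with both and 37 with the neuron scaling. Genes higher in KO, 1233 in the report, were 1625 with the block, 2133 with block and offsets, 5149 with the neuron scaling and 2209 with the scaling to lineage genes. With 1 library left out, the genes higher ranged from 900 to 2578 and those lower from 51 to 2180. The causes of these shifts were not tested. Both scalings to gene lists were chosen after seeing the data. On simulated counts, 17.4% of the calls of the block fit were false. *Cck* and *Tac1* gave no value under the minimum of 10 counts in every library. With 2 libraries per genotype, *Vip*, *Pvalb*, *Cck* and *Tac1* are limited by depth.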

Other observations

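Peptides of the hypothalamus, which adjoins the POA, were sparse. Of 9 listed genes 4 were tested and none passed, with a median log2 fold change of -0.99. *Nts*, for neurotensin, was the most abundant and averaged 8.76 ± 0.632 CPM for WT, against 4.38 ± 1.37 CPM for KO (SD, n = 2 each; log2 fold change -1.003, edgeR adjusted p = 0.13), and *Gal*, for galanin, had a log2 difference of -0.9998 (edgeR adjusted p = 0.118). *Avp*, *Oxt*, *Hcrt* and *Kiss1* had at most 7 counts in any library.

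Of 9 markers of striatal projection neurons, which also make *Tac1*, 1 was higher in KO and 0 were lower, with a median log2 fold change of -0.05. The gene that rose was *Ppp1r1b*, for the dopamine-regulated phosphoprotein DARPP-32, with 16 and 23 counts in the WT libraries, against 56 and 69 in the KO libraries (log2 fold change 1.74, edgeR adjusted p = 0.0256). The most abundant, *Foxp1*, had a log2 difference of -0.47 (edgeR adjusted p = 0.167). Of 8 progenitor genes 1 was higher, the Notch target *Hes1* (log2 fold change 1.55, edgeR adjusted p = 0.0126), and 0 were lower. Their median was 0.26, with 5 positive values, among them *Vim*, with the highest mean over the 4 libraries (0.26, edgeR adjusted p = 0.349), and 3 negative ones, among them *Sox2* (-0.29, edgeR adjusted p = 0.302). Of 5 oligodendrocyte precursor genes 1 was higher (*Olig2*, log2 fold change 0.63, edgeR adjusted p = 0.0298), and *Pdgfra*, the most abundant, had 0.21 (edgeR adjusted p = 0.394). Of 6 microglia genes 5 were tested and 1 was higher (*Csf1r*, also the most abundant, log2 fold change 1.03, edgeR adjusted p = 0.0474). None of the 4 tested endothelial genes passed, with 2 positive and 2 negative values and a median of -0.37. *Kdr* had a log2 difference of -0.84 (edgeR adjusted p = 0.207) and *Flt1* had 1.11 (edgeR adjusted p = 0.107).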
